A study of Mus musculus with 6 samples.

Results

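The replication-dependent core histone genes are switched on when DNA is copied. They were followed in CD4 T cells of females that differed in the ChrY of their fathers. Members were all probe sets (transcript clusters, each 1 summarized signal per array) whose annotation held at least 1 gene symbol of the replication-dependent families, that is H2ac, H2bc, H3c or H4c followed by a number, or the older Hist1h to Hist4h names. There were 48 of them among 23410 annotated probe sets tested, 6 for H2A, 17 for H2B, 13 for H3 and 12 for H4. Sorted CD4+TCRB+ cells labelled naive came from axillary, inguinal and brachial nodes of females aged 8 weeks from mixed-sex litters, on the C57BL/6J background. For the sort the methods name antibodies to CD4 and TCRB, and no marker that sets resting cells apart. The wild type group, B6, and the consomic group, B6-ChrYSJL, whose fathers carried the ChrY of SJL, had 3 pools each, every pool holding the nodes of 5 mice. Neither group was treated, the females carry no ChrY themselves, and 1 consomic strain stands for the SJL ChrY. From each pool 50 ng of RNA was amplified and measured on an Affymetrix Mouse Gene 1.0 ST array.

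Histones H3 and H4 form the tetramer at the heart of the nucleosome, and dimers of H2A and H2B complete it. Most of their genes lie in large clusters, are transcribed when DNA is replicated, and give mRNAs that end in a stem-loop in place of a poly(A) tail, which stem-loop binding protein recognizes. Replacement variants such as H2A.Z and H3.3 come from genes that lie singly outside these clusters. Their mRNAs are polyadenylated and are made throughout the cell cycle, also in resting lymphocytes.

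The coding sequences within a class are nearly the same, and the probe sets reflect it. Of the 48 members, 22 carried 1 gene symbol and 26 carried several, in 30 distinct lists of symbols. The lists held 62 symbols, of which 57 met the rule. The same 12 H3 genes were listed for 10 probe sets, the same 11 H4 genes for 5, the same 15 H2B genes for 4 and the same 14 H2B genes for 3. The H2A list of 20 genes also held an H3 gene and genes of H2A variants. In 2 pairs, 1 of H2B and 1 of H4, both probe sets had identical values on all 6 arrays. Members are therefore not independent measurements, and a probe set with several genes is called here by its class and transcript cluster number. By RefSeq, 32 members lay on chromosome 13 alone, 4 on chromosome 3 alone and 12 held genes of both. Signals are deposited RMA log2 values, and 42 members averaged above 5.98, the level taken as background, which 95% of olfactory and vomeronasal receptor probe sets did not reach. The arrays correlated at 0.991 to 0.993, and the CD4 T cell markers Cd4, Cd3e, Cd3d, Cd3g and Cd28 averaged between 10.8 and 12.5.

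Signals of the core histone probe sets lay lower in B6-ChrYSJL for 39 of the 48 members and higher for 9, against 51.1% of all tested probe sets that lay lower. No member passed an FDR of 0.05 in limma, which 0.0171% of all probe sets did (4 of 23410), or an FDR of 0.1, which 0.0726% did. The smallest FDR of a member was 0.168. At an unadjusted p under 0.05, 18 members (37.5%) were lower in B6-ChrYSJL, where 5.92% of all probe sets were, and 1 member (2.08%) was higher, where 4.69% were. All pools of B6-ChrYSJL lay below all pools of B6 for 19 members, a pattern of 9.42% of all probe sets, and above them for 1, a pattern of 7.68%. The median difference of the members was −0.15 on the log2 scale, and that of all probe sets −0.0036. In RNA of pooled cells, fewer cells that make a transcript and less of it per cell cannot be told apart. The pools of a strain are separate groups of animals, and how few they are limits the precision. A member's difference had a median standard error of 0.08, as did that of all probe sets.

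Most of the lower members were probe sets of several genes. All 26 members with several symbols lay lower in B6-ChrYSJL, 15 of them at an unadjusted p under 0.05, with a median difference of −0.20. Of the 22 members with 1 symbol 13 lay lower and 9 higher, 3 lower and 1 higher at that p, with a median of −0.02. Of all tested probe sets 51.1% lay lower, 5.92% were lower at that p and 4.69% higher. Averaged over probe sets with the same symbol list, 21 of 30 lists lay lower, 7 of them at an unadjusted p under 0.05, and the median was −0.09. The difference between members with 1 and with several symbols was not tested.

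**Figure D1:**
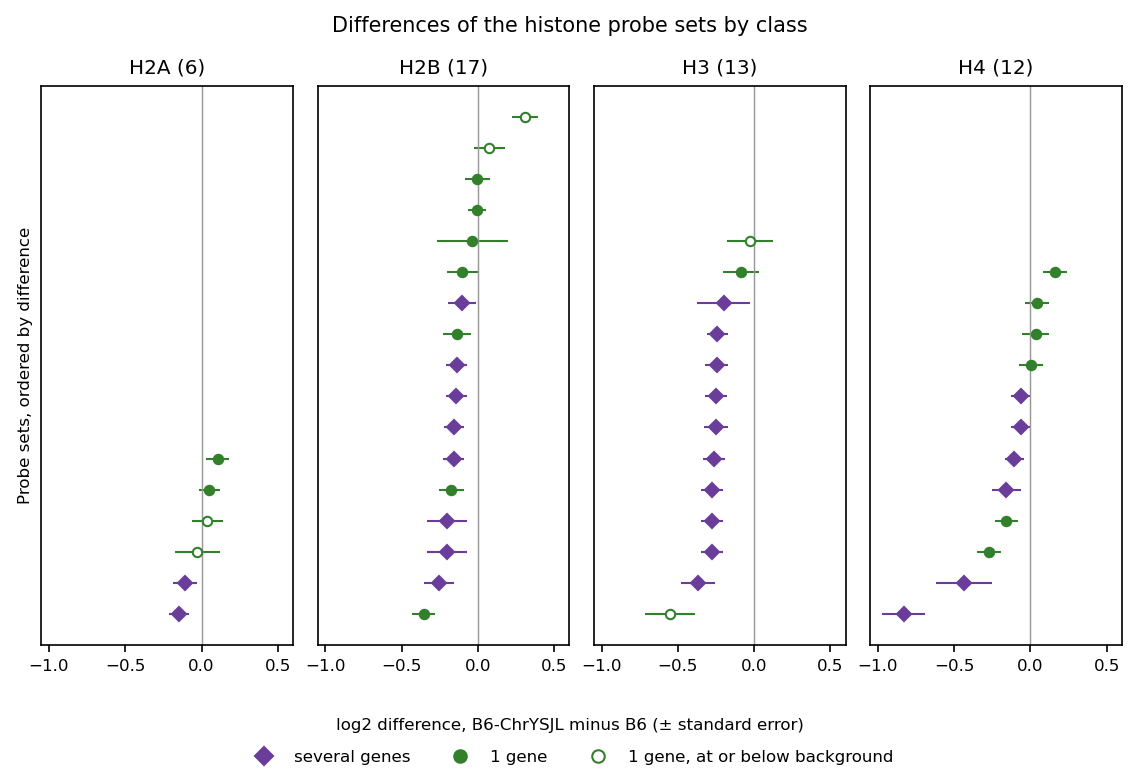
Log2 difference (B6-ChrYSJL minus B6, horizontal) of each of the 48 histone probe sets, in 1 panel per class and ordered by size from the bottom, with standard errors from limma as bars. Diamonds are probe sets of several genes, circles those of 1 gene, and open circles average at or below background; all 13 H3 probe sets and all diamonds lie left of 0, while circles of the H2A, H2B and H4 panels lie on both sides.

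Among H3 probe sets all 13 lay lower in B6-ChrYSJL, where 51.1% of all probe sets did, with a median difference of −0.25. At an unadjusted p under 0.05, 10 of the 13 were lower, beside 5.92% of all probe sets. The 10 probe sets of the same 12 H3 genes carried this count, with 9 lower at that p and differences between −0.37 and −0.20. Of these 10, 8 were bright, with 6-array means of 10.6 to 10.7. The median of the bright 8 was 10.83, 10.71 and 10.89 in B6 replicates 1, 2 and 3 and 10.49, 10.56 and 10.57 in B6-ChrYSJL replicates 1, 2 and 3. Every B6-ChrYSJL pool was lower than every B6 pool in each of these 8, a pattern of 9.42% of all probe sets. The 8 list the same genes and are not independent measurements. Averaged into 1 signal, the 10 probe sets of the 12 genes differed by −0.26 (standard error 0.07, unadjusted p = 0.00633 and FDR = 0.336 in limma). Cluster 10404049 had the smallest p of the 8, with a difference of −0.28 (standard error 0.07, unadjusted p = 0.0044 and FDR = 0.321 in limma), which is 82.6% of the B6 level. Cluster 10494402, the largest difference of the 10, was 8.25, 8.67 and 8.40 in B6 and 8.03, 8.19 and 7.99 in B6-ChrYSJL. Its groups did not overlap, with B6-ChrYSJL replicate 2 the nearest to the B6 pools. The remaining one, cluster 10408246, had a difference of −0.20 with overlapping groups (standard error 0.18).

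Few H3 genes could be read singly. H3c15, an H3 gene of the smaller cluster on chromosome 3, was 5.76, 5.83 and 5.66 in B6 and 5.51, 5.31 and 4.78 in B6-ChrYSJL. All 6 values are under the background level, so the size of its difference of −0.55 (standard error 0.17, FDR = 0.359 in limma) is uncertain. H3c4 averaged 7.12 in B6, with an SD of 0.17 over 3 pools, and 7.04 in B6-ChrYSJL, a difference within the spread of the pools. H3c7 was below background, with a difference of −0.03 that turned to 0.11 without B6 replicate 3 and to 0.09 without B6-ChrYSJL replicate 1.

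The H4 probe sets gave the largest difference of all members and also some of the smallest. Of 12 H4 members 8 lay lower in B6-ChrYSJL and 4 higher, where 51.1% of all probe sets lay lower. At an unadjusted p under 0.05, 3 were lower and none was higher, beside 5.92% and 4.69% of all probe sets. The median of the H4 members was −0.08, and 0.02 over the 6 with 1 symbol. Cluster 10403945, annotated to 2 H4 genes together, H4c11 and H4c17, was 7.01, 7.50 and 7.22 in B6 and 6.62, 6.40 and 6.22 in B6-ChrYSJL. Each B6-ChrYSJL pool lay below each B6 pool, at 56.3% of the B6 level on average. The difference was −0.83 (standard error 0.14, unadjusted p = 0.000294 and FDR = 0.168 in limma) and lay between −0.95 and −0.70 when any 1 array was left out. With a variance trend in limma its FDR was 0.0198, and over all alternatives it ranged from 0.0197 to 0.446. H4c8 was 7.03, 7.08 and 7.20 in B6 and 6.72, 6.93 and 6.84 in B6-ChrYSJL. These groups did not overlap either, with a difference of −0.27 (standard error 0.08, unadjusted p = 0.00863 and FDR = 0.356). Cluster 10408243, shared by 11 H4 genes, was 9.26, 10.04 and 9.49 in B6 and 9.21, 8.97 and 9.30 in B6-ChrYSJL, so that its difference of −0.43 rested in part on B6 replicate 2 and was −0.21 without it.

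The brightest H4 probe sets had small differences. Those of 11 genes with 6-array means of 12.0 to 12.2 had differences of −0.06 to −0.11. Among them, clusters 10403957 and 10408092 are the H4 pair with identical values. Cluster 10404067, the brightest, had groups that did not overlap (difference −0.11, standard error 0.06, unadjusted p = 0.129 in limma). H4c4 was 12.08, 12.22 and 12.20 in B6 and 12.09, 12.03 and 11.91 in B6-ChrYSJL. The H4c4 groups overlapped by 1 pool, with a difference of −0.16 (standard error 0.08). H4c14, the H4 gene of the chromosome 3 cluster, differed by 0.01 (standard error 0.08), a direction that turned with median-centred arrays and without B6 replicate 1, B6 replicate 3 or B6-ChrYSJL replicate 1. H4c6 had the highest difference of the class, 0.16 (standard error 0.08, unadjusted p = 0.0752), with overlapping groups.

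The promoters of 4 H4 genes, those of H4c4 and H4c8 and the pair to which cluster 10403945 is annotated, are shown because their class shares an element that the other classes mostly lack. Each line is 300 bases of RefSeq sequence (GRCm38.p6), 250 before and 50 after the annotated start of transcription, 5′ to 3′ on the strand of the gene. Capitals mark, on either strand, TATAA (the core of a TATA box), CCAAT, the octamer ATTTGCAT, known as the site of octamer factors in H2B promoters, and GGTCCG, the core of the H4 promoter element that the zinc finger protein HINFP is known to bind. In the H4c4 window TATAA on one strand overlaps TATAA on the other.
H4c4 (chr13:23581318-23581617, plus strand): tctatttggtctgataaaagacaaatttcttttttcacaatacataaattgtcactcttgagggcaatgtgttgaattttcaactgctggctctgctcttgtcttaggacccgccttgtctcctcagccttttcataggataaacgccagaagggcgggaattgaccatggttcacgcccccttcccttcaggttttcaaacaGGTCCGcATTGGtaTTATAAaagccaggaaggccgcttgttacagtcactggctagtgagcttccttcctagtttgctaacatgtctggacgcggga
H4c8 (chr13:23530794-23531093, plus strand): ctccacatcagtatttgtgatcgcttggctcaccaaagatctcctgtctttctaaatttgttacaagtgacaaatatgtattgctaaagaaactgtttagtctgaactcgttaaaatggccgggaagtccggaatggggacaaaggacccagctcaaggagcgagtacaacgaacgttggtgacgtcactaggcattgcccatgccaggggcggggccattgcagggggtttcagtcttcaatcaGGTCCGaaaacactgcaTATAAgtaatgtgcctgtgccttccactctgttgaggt
H4c11 (chr13:21734784-21735083, plus strand): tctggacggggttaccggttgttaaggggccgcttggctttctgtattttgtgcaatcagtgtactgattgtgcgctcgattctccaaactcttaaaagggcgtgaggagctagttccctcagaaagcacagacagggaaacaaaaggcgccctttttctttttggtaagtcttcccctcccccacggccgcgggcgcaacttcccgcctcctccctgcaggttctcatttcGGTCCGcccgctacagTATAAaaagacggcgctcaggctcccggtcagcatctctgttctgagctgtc
H4c17 (chr13:21811496-21811795, plus strand): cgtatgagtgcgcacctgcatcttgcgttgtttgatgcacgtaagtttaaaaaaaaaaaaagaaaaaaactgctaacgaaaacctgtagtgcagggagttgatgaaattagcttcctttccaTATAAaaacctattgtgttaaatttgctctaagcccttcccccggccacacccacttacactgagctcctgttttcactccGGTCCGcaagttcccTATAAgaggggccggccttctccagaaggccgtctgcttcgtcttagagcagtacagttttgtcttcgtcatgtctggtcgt
All 4 windows hold GGTCCG on the strand of the gene, followed by TATAA. In H4c4 and H4c17 the first base of GGTCCG lies 47 bases before the start, in H4c11 18 bases and in H4c8 5 bases before it. A promoter window was found for 52 of the 57 member genes, in 53 windows. GGTCCG stood in 10 of 11 H4 windows, 0 of 17 H2A, 1 of 15 H2B and 1 of 10 H3 windows, and in 8.25% of all 32851 windows of the same length. CCAAT went the other way, in 3 of 11 H4 windows and in every window of the other classes (17 of 17, 15 of 15 and 10 of 10), against 37.4% of all windows. TATAA stood in 15 of 17 H2A, 11 of 15 H2B, 5 of 10 H3 and 10 of 11 H4 windows, against 24.9% of all. These matches describe the letters only.

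H2B was the class with the most probe sets of 1 gene, and their values spread to both sides. Of 17 H2B members 15 lay lower in B6-ChrYSJL, where 51.1% of all probe sets did. At an unadjusted p under 0.05, 4 were lower and 1 was higher, beside 5.92% and 4.69% of all probe sets. The median of the H2B members was −0.14, and −0.04 over the 9 with 1 symbol. H2bc8 was 8.21, 8.04 and 8.18 in B6 and 7.87, 7.71 and 7.78 in B6-ChrYSJL. Every B6-ChrYSJL pool was below every B6 pool, with a difference of −0.36 (standard error 0.08, unadjusted p = 0.00144 and FDR = 0.254 in limma), the lowest of the H2B members and 78.2% of the B6 level. H2bc22 was 5.41, 5.42 and 5.23 in B6 and 5.63, 5.58 and 5.79 in B6-ChrYSJL. It was the member with the largest difference upward, 0.31 (standard error 0.08, unadjusted p = 0.00582 and FDR = 0.33), in a range below the background level. H2bc22 is also listed on H2B probe sets of several genes, which averaged above background and lay lower in B6-ChrYSJL, by −0.20 to −0.10. Which of their genes those probe sets read was not tested. H2bc21, an H2B gene on chromosome 3, averaged 8.80 in B6, with an SD of 0.02, and 8.79 in B6-ChrYSJL. The groups overlapped, with a difference of −0.0043 (standard error 0.06). H2bc9 varied most within B6, with 8.37, 7.91 and 7.43, and was 7.62, 7.75 and 8.23 in B6-ChrYSJL.

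Cluster 10403978, shared by 15 H2B genes and among the brightest of the class, was 11.43, 11.47 and 11.49 in B6 and 11.26, 11.39 and 11.26 in B6-ChrYSJL. Its groups stood apart with a difference of −0.16 (standard error 0.07, unadjusted p = 0.0442 and FDR = 0.464). Cluster 10403980, of the same 15 genes, had the same rounded difference. Both calls at the unadjusted p were lost with 5 of the 6 arrays left out in turn. Cluster 10408212, annotated to an H2B gene and a linker histone gene, had a difference of −0.25 (standard error 0.10) and overlapping groups.

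The H2B promoters of the lowest and the highest member are shown next, with the same capitals.
H2bc8 (chr13:23571150-23571449, plus strand): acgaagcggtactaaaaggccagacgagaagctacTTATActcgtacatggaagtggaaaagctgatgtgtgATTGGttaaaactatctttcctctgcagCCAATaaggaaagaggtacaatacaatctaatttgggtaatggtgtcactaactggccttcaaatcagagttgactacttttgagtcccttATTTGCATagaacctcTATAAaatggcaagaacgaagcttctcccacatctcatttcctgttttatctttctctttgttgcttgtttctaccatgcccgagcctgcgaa
H2bc22 (chr13:21787238-21787537, plus strand): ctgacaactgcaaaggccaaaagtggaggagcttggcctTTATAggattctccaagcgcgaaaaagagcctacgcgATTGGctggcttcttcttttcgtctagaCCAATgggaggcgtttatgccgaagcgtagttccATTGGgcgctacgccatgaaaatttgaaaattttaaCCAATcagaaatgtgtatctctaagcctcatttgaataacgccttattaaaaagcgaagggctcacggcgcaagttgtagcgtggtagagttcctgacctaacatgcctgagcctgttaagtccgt
The H2bc8 window holds the octamer 59 bases and TATAA 43 bases before the start on the strand of the gene. The H2bc22 window holds 4 CCAAT matches, no octamer, and TATAA on the opposite strand alone. The octamer stood in 7 of 15 H2B and 6 of 17 H2A windows, in 0 of 10 H3 and 0 of 11 H4 windows and in 1.74% of all windows. H2bc8 and its neighbour H2ac8 lie head to head, and their windows share 279 bases. H2ac8 was below background in both groups, with a difference of 0.04 (standard error 0.10).

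H2A had few probe sets of its own and no common direction, with 3 of 6 lower, 3 higher and a median of 0.01, where 51.1% of all probe sets lay lower. The brightest was cluster 10409220, which lists 20 genes and was 11.99, 11.95 and 12.08 in B6 and 11.85, 11.89 and 11.84 in B6-ChrYSJL. Its pools did not overlap, with a difference of −0.15 (standard error 0.07, unadjusted p = 0.0488 and FDR = 0.468), and the call at the unadjusted p was lost with 5 of the 6 arrays left out in turn. H2ac15 had the highest difference of the class, 0.11 (standard error 0.07), with overlapping groups. The testis genes H2ac1 and H2bc1, which are known from the male germ line, had differences of 0.05 (standard error 0.07) and 0.07 (standard error 0.10). H2bc1 averaged 5.89, below background, and its difference turned to −0.03 without B6-ChrYSJL replicate 2. H2ac1 averaged 7.59.

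**Figure D2:**
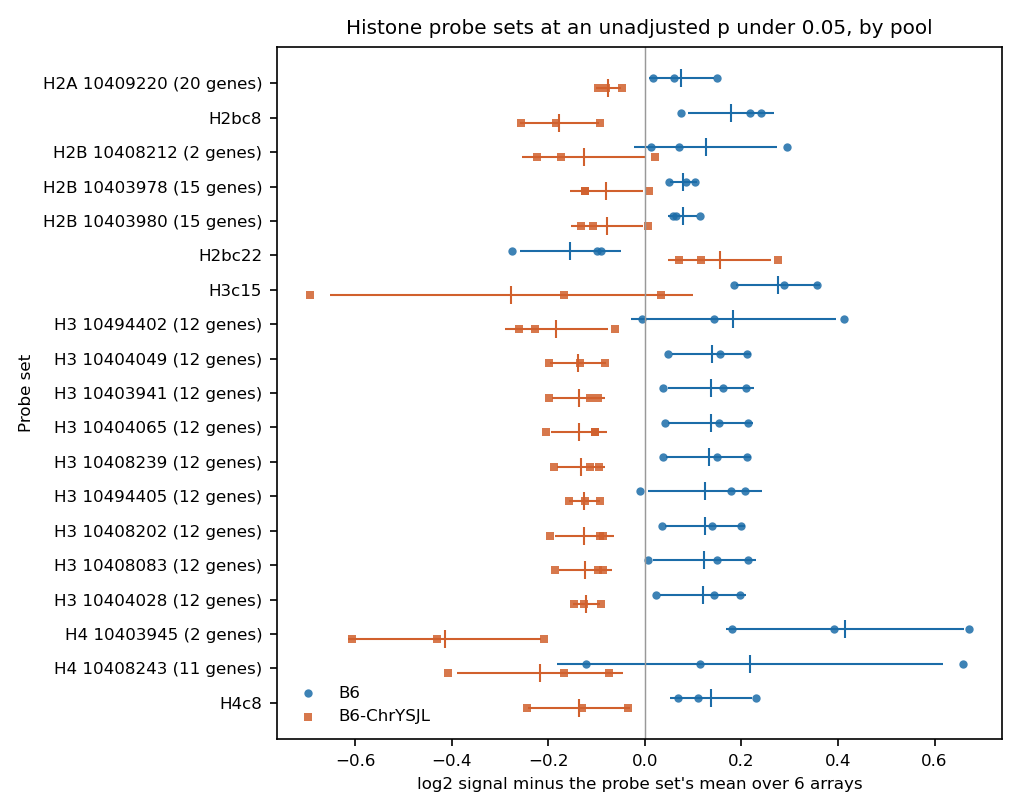
Log2 signal of each pool minus the probe set's mean over 6 arrays (horizontal) for the 19 histone probe sets at an unadjusted p under 0.05, with B6 pools as circles, B6-ChrYSJL pools as squares, and the group mean and SD (n = 3) as tick and bar. In 18 of the 19 the B6-ChrYSJL mean lies left of the B6 mean, and H2bc22 is the exception, and it and H3c15 average below background.

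Of the 18 members that were lower at an unadjusted p under 0.05, 13 stayed there whichever array was left out, and 10 of these were H3 probe sets. Among these 10, 9 list the same 12 H3 genes and are not independent measurements, so 13 overstates the number of separate signals. The other 3 were H2bc8, H4c8 and cluster 10403945. Of all 1385 probe sets lower at that p, 506 did so. The number of lower members lay between 14 and 21 with 1 array left out, and all alternatives that kept every member gave 14 to 23.

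**Figure D3:**
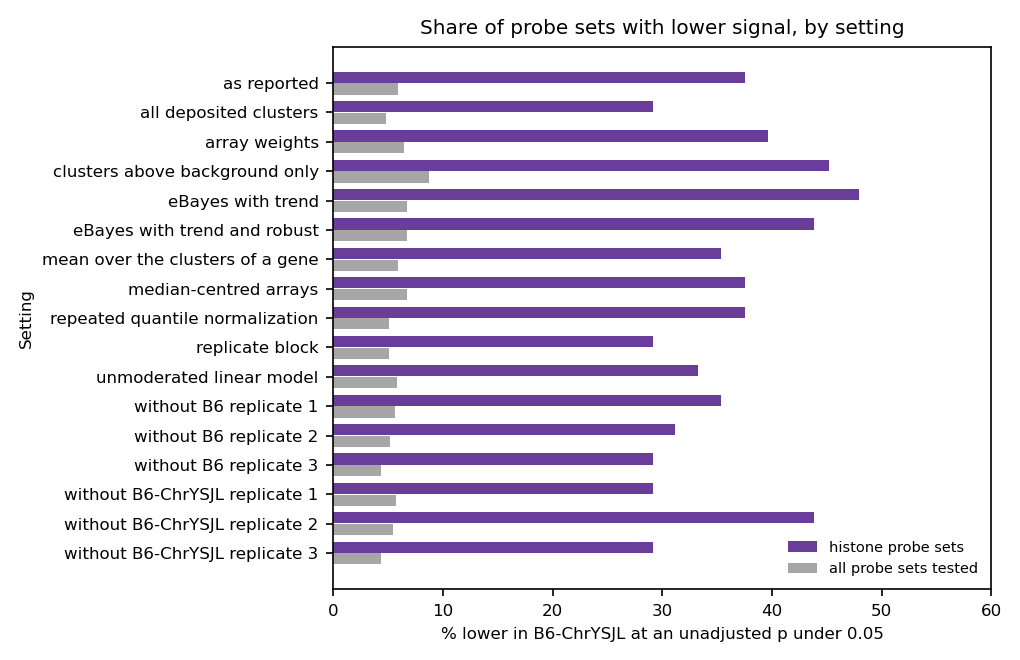
Percent of probe sets lower in B6-ChrYSJL at an unadjusted p under 0.05 (horizontal, from 0), in the fit as reported and in alternative fits, including the mean per gene. Dark bars are the histone members and grey bars all probe sets tested in that setting. Not plotted are the settings without members of several genes (3 of 22 lower, 13.6%) and with equal symbol lists averaged (7 of 30 lower). Among the settings plotted the histone share is 37.5% as reported and 29.2% at its lowest, and the share of all probe sets is 5.92% as reported and 8.72% at its highest.

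Linker histones and the core histone genes outside the large clusters were not caught by the rule because their current symbols differ; they were looked at after values were seen. H1f2, a replication-dependent linker histone that binds the DNA between nucleosomes, was 10.33, 10.31 and 10.20 in B6 and 10.01, 9.84 and 9.98 in B6-ChrYSJL. The groups did not overlap, with a difference of −0.34 (standard error 0.07, unadjusted p = 0.00167 and FDR = 0.26 in limma). H2aw, an H2A gene of the former Hist3 group, had means of 9.80 ± 0.11 and 9.39 ± 0.07 (SD, n = 3 pools each) in B6 and B6-ChrYSJL (difference −0.41, standard error 0.08, FDR = 0.216). H1f3 was lower by the same unadjusted threshold, below background (−0.37, standard error 0.09). H1f1, H1f5, H1f6, H2bu2 and H4f16 did not pass it, with differences from −0.13 to 0.37.

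None of the 9 measured replacement histone variants passed an unadjusted p of 0.05 in limma, which 10.6% of all probe sets did in either direction. With so few variants, that share would leave about as few. Their median difference was −0.04. H2az1, which encodes H2A.Z, was 12.33, 12.35 and 12.37 in B6 and 12.24, 12.26 and 12.33 in B6-ChrYSJL. The groups overlapped, with a difference of −0.08 (standard error 0.06). Macroh2a1, a large variant with a macro domain, had −0.11, Macroh2a2 −0.13 below background and H2aj, a variant related to H2A, −0.04. Whether the variants and the replication-dependent genes differ in their shift was not tested.

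Factors that transcribe histone genes and process their mRNAs came next. Of 18 measured, 4 were lower at an unadjusted p under 0.05, where 5.92% of all probe sets were, none was higher, and the median was −0.03. The number lower was 1 with repeated quantile normalization or without B6-ChrYSJL replicate 3, 1 with the replicate number as a block, and 2 over all deposited probe sets or without any 1 of the B6 pools or B6-ChrYSJL replicate 2. Hinfp, the H4 gene activator named above, was 8.01, 8.27 and 8.20 in B6 and 7.82, 7.78 and 7.93 in B6-ChrYSJL. The groups did not overlap (difference −0.31, standard error 0.09, unadjusted p = 0.006 and FDR = 0.33 in limma). The other 3 were Srrt, which links the mRNA cap to 3′ processing (−0.26), Casp8ap2, a protein of the histone locus body (−0.19), and Sympk, a scaffold of the 3′ cleavage complex (−0.16). Npat, the coactivator at histone loci, had −0.04 and Slbp, stem-loop binding protein, −0.08, both with overlapping groups. Of 17 measured histone chaperones and carriers 2 were lower and none higher at the same p, again beside 5.92% of all probe sets lower, with a median of −0.05. The number lower was 1 with repeated quantile normalization or without B6 replicate 1, B6-ChrYSJL replicate 1 or B6-ChrYSJL replicate 3, and 4 without B6 replicate 3. They were Atrx, which acts with DAXX to deposit H3.3 (−0.21), and Ipo4, which imports H3 and H4 into the nucleus (−0.18). Nap1l1 (−0.27) and Tonsl (−0.21) did not pass.

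S phase and proliferation genes were set beside the histone members. Of 26 measured, 22 lay lower in B6-ChrYSJL, where 51.1% of all probe sets did, and 4 lay higher. At an unadjusted p under 0.05, 9 were lower, beside 5.92% of all probe sets, and none was higher, beside 4.69%. None passed an FDR of 0.05 or 0.1 in limma, and the median was −0.15. Mki67 had the smallest p of the 26, with a difference of −0.62 (standard error 0.10, unadjusted p = 0.000202 and FDR = 0.148 in limma). The Mki67 groups did not overlap, and its B6-ChrYSJL mean of 5.82 lay below background. Top2a, a topoisomerase of dividing cells, had −0.48 in its brighter probe set, while another, below background, had 0.18, and the mean of both gave −0.15. Gins2, a part of the replicative helicase, had −0.34 and Uhrf1, which maintains DNA methylation at the fork, −0.33. Pcna, the sliding clamp, averaged 11.6 with a difference of 0.05 (standard error 0.07). Markers of other cells were read in the same fit, and none passed an FDR of 0.05 or 0.1. Both CD8 T cell markers were lower at an unadjusted p under 0.05 (Cd8a −0.54, Cd8b1 −0.28), beside 5.92% of all probe sets. Their centred median per pool was 0.09 to 0.29 in B6 and −0.30 to −0.15 in B6-ChrYSJL. All 8 measured B cell markers lay higher, where 51.1% of all probe sets lay lower. At an unadjusted p under 0.05, 2 of the 8 were higher, beside 4.69% of all probe sets. Their centred medians overlapped, at −0.21 to −0.08 in B6 and −0.19 to 0.38 in B6-ChrYSJL. None of the 9 myeloid, 3 erythroid and 5 CD4 T cell markers passed that p, beside 10.6% of all probe sets in either direction. The part of dividing or other cells in the histone values was not tested.

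**Figure D4:**
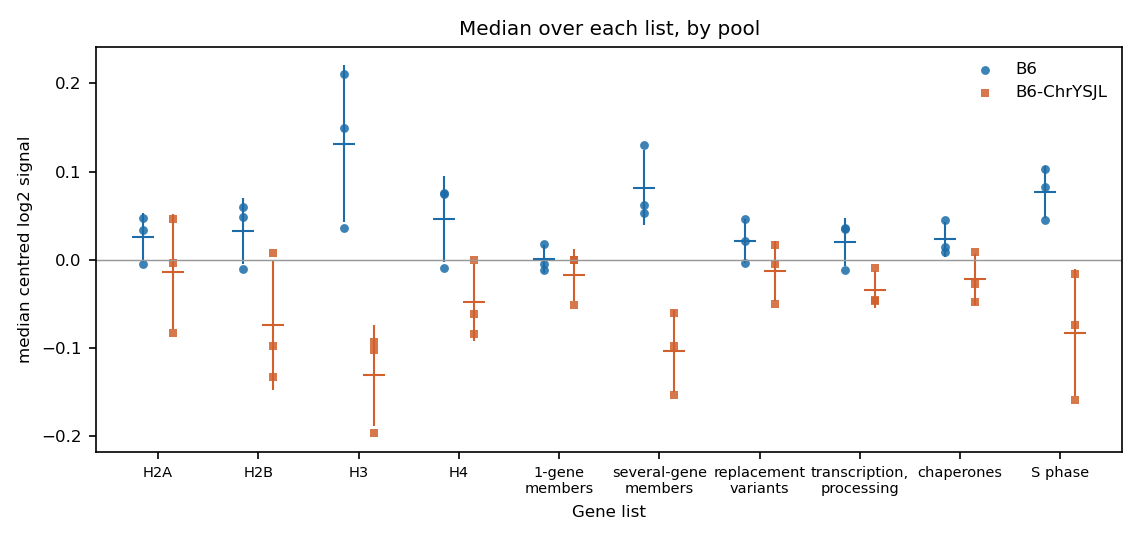
Median over each gene list (horizontal) of log2 signal minus each probe set's 6-array mean (vertical) in B6 pools (circles) and B6-ChrYSJL pools (squares), with the group mean and SD (n = 3) as tick and bar. The medians of the H3 members, of the members with several genes and of the S phase genes do not overlap between the groups. Those of every other list plotted overlap or, for the chaperones, meet at 0.0093.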

How the data were processed

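Per the labels and the methods, the deposited log2 values are the authors' RMA summaries of background-corrected, quantile-normalized probe signals, made with GCOS and Partek; the submitters' processing notes name mm9. These were used as they are. Probe sets were named through the platform annotation and RefSeq (GRCm38.p6). Of 35556 deposited, 23410 with a symbol entered a model of strain alone in limma (version 3.58.1, R 4.3.3), adjusted after Benjamini and Hochberg (FDR); no p was computed for a list. Tables and figures used Python 3.11.15 and matplotlib 3.10.9.

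The members and the gene lists were chosen with earlier results of these data known. Named were members at an FDR under 0.1 or at an unadjusted p under 0.05 without overlap, the brightest, highest and lowest of each class, the testis genes, and the 4 genes of each list with the smallest p; others were named after their values were seen. A listed gene with several probe sets was read from the brightest. Variance models, array weights, filters, normalizations, averaging, a replicate block and leaving out single arrays were tried as alternatives. The fit was tested on simulated data.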

Additional observations from a re-analysis of the deposited data

How the results depend on the processing

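Most values kept their direction and their side of the threshold. Alternatives that change only the variance model, the block or the probe sets tested leave a difference as it is, so its direction could not change there. As no member passed an FDR of 0.05 as reported, none could lose that side. The number of members lower in B6-ChrYSJL at an unadjusted p under 0.05 was 18 of 48 as reported, 3 of 22 without members of several genes and 7 of 30 when probe sets with the same symbol list were averaged (chosen after seeing the data); the median difference was then −0.0157 and −0.0934. Over members of 1 gene the class medians were −0.0363 for H2B, −0.0858 for H3 and 0.0195 for H4, the last a change of sign. Fewer probe sets of each class enter these settings by construction. The number of higher members was 0 with probe sets above background alone or with dim members left out, 2 with repeated quantile normalization, and 1 to 2 with an array left out.

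With a variance trend, alone or with robust fitting, 1 member (cluster 10403945, −0.83) and 1 S phase gene (Mki67, −0.62) passed an FDR of 0.05, and 1 replacement variant was lower at the unadjusted p; the cause was not tested. All probe sets past an FDR of 0.05 were 4 as reported, 0 over all deposited clusters and with the unmoderated linear model of the methods, 13 above background, 55 and 47 with a trend and with trend and robust fitting, 8 with a mean per gene, 11 with median-centred arrays, 6 with array weights, 2 with repeated quantile normalization and 0 to 7 with an array left out. Lower transcription and processing factors numbered 2 over all deposited clusters, 1 with repeated quantile normalization, when 1 was higher and the median was −0.0008, 1 with the replicate number as a block, and 1 to 4 with an array left out; lower chaperones numbered 1 with repeated quantile normalization and 1 to 4 with an array left out.

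With an array left out, the median ranged from −0.1008 to −0.0503 for chaperones, from −0.0554 to −0.0157 for transcription and processing factors and from −0.0627 to −0.0092 for variants, and 0 to 1 S phase genes were higher. The difference of H3c7 ranged from −0.1500 to 0.1116 and changed sign without B6 replicate 3 or B6-ChrYSJL replicate 1, that of H2bc1 ranged from −0.0257 to 0.1762 and changed sign without B6-ChrYSJL replicate 2, and that of H4c14 ranged from −0.0517 to 0.0571, changed sign without B6 replicate 1, B6 replicate 3 or B6-ChrYSJL replicate 1, and was −0.0048 with median-centred arrays.

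The labels do not say that replicate numbers pair the pools. Same-numbered pools correlated in their deviations at −1e-04, −0.04 and −0.02. With the replicate number as a block, 14 members were lower and 3 probe sets of all passed an FDR of 0.05. Signal over background limits H3c15, H3c7, H2bc22, H2bc1, H2ac4 and H2ac8.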
